A study of Mus musculus with 31 samples.

Results

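Cirbp and Rbm3 encode the cold-inducible RNA-binding proteins, and their RNA was followed in the brains of 31 mice after a tail-vein injection. The members were taken as every array row named Cirbp or Rbm3, which gave 2 genes and 4 probes, of 25203 genes tested and 55681 probes on the array. All mice were female C57BL/6 animals aged 6 weeks, anaesthetised with xylazine and ketamine and injected with 200 µl. The control mice received physiological serum (14 mice). The other 17 received oleic acid, a fatty acid used to injure the lung experimentally, dosed by body weight at 1.2 µl/g. At 1 h and 1.5 h each treatment had 3 mice, at 18 h each had 2, and at 3, 4 and 24 h there were 2 serum against 3 oleic acid mice. Anaesthesia and injection were thus shared by all 12 groups, and no group of uninjected mice was analysed here. Each brain was measured on its own single-colour array.

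Both proteins carry an RNA recognition motif followed by a glycine-rich tail. Their transcripts are known to accumulate in mammalian cells kept a few degrees below normal body temperature and to decline on warming, and in several tissues they also follow the daily cycle of body temperature. CIRBP binds stress and clock transcripts, among them Clock, and RBM3 supports protein synthesis and the maintenance of synapses in the cooled brain. Body temperature is not given in the sources used here, so no value below is set against it.

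The probes that carry the results are shown first, because each gene is read through 1 short stretch of its transcript. The Cirbp probe A_51_P272106 lies at chr10:79634274-79634333 on the plus strand (mm9). Of the Rbm3 probes, A_51_P262340 lies at chrX:7719656-7719715, A_55_P2117525 at chrX:7720785-7720844 and A_52_P280360 at chrX:7718033-7718092, all on the minus strand. The first 30 of the 60 bases of each probe were:
Cirbp A_51_P272106: atttatattgtccttttttaccgaagacat
Rbm3 A_51_P262340: atggccagaaagtgatttctgaatgtacct
Rbm3 A_55_P2117525: atgacagtcgtcctggaggatatggatatg
Rbm3 A_52_P280360: agttggatggttttctagctgtgtgtgtat
The Cirbp probe and the first and second Rbm3 probes were well above background on 31 of 31 arrays. The third Rbm3 probe was above it on 16 of 31. Each gene is represented by its probe with the highest mean signal, A_51_P272106 for Cirbp and A_51_P262340 for Rbm3. Values are log2 signal minus the 75th percentile of the same array, called the log2 level, and levels of different probes are not compared.

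The promoter of Cirbp is shown because a mild-cold response element, an octamer described upstream of this gene, stands in it. RefSeq lists 2 starts for Cirbp (GRCm38.p6), and the 250 bases before the first are at chr10:80167589-80167838 on the plus strand, with TCCCCGCC in capitals:
Cirbp promoter: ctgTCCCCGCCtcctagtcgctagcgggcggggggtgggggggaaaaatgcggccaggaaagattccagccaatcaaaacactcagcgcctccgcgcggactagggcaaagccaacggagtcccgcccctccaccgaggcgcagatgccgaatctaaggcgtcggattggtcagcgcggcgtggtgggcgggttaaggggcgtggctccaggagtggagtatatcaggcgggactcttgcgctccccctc
The octamer lies 247 to 240 bases before the start. Searched on both strands, TCCCCGCC was present in 4.64% of 32851 mouse promoter windows of the same length. The same Cirbp window held 3 GC boxes (GGGCGG, in 32.7% of windows) and 2 CCAAT boxes (CCAAT, in 33.8%), none overlapping the octamer. The E-box CACGTG (6.02% of windows) and the heat shock element core GAANNTTC (6.69%) were not in either Cirbp window. The second window, at chr10:80167921-80168170, held 4 GC boxes and not the octamer. These matches describe the letters of the window, and binding was not measured here.

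The arrays differed in brightness. The 75th percentile of intensity ran from 306 to 813 (median 561), and 54.3% to 76.3% of spots were well above background, the most on replicate 1 of oleic acid 4 h. The ranges of the 75th percentile in the 3 spans of time overlapped: 306 to 813 at 1-1.5 h, 422 to 767 at 3-4 h and 376 to 754 at 18-24 h. Mean correlations with the other arrays were 0.978 to 0.988. The neuronal genes Snap25, Syt1 and Syn1 were well above background on 31 of 31 arrays. The 4 arrays with the lowest Gabra6, a cerebellar granule cell gene, were replicate 2 of oleic acid 1.5 h, replicate 1 of serum 1 h, replicate 2 of serum 4 h and replicate 3 of oleic acid 4 h, and the summed level of 8 cerebellum markers ran from 3.19 to 6.82. Summed pituitary markers reached 7.77 in replicate 2 of serum 24 h, 7.44 in replicate 3 and 7.23 in replicate 1 of oleic acid 24 h. The arrays came on 5 slides that were unevenly filled. All 1 h mice were on slide 1, all 4 h mice and both serum 18 h mice on slide 4, and both oleic acid 18 h mice and all oleic acid 24 h mice on slide 5. Time was therefore largely, but not wholly, tied to the slide, and within-slide values are given beside the time results.

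Cirbp was highest at 4 h and lowest at 18 and 24 h after either injection. At 1 h its log2 level was 3.53, 3.39 and 3.84 in the serum mice and 3.73, 3.89 and 3.81 in the oleic acid mice. At 1.5 h it was 3.41, 3.32 and 3.32 after serum and 3.42, 3.50 and 3.44 after oleic acid. The 1.5 h mice thus lay in a narrow band, and below every 1 h mouse except replicate 2 of serum. At 3 h the level was 3.64 and 3.86 after serum and 3.78, 4.04 and 3.82 after oleic acid. At 4 h it was 4.17 and 3.83 after serum and 4.10, 4.12 and 3.97 after oleic acid. All 10 mice of these times were at or above 3.64. At 18 h the level was 2.90 and 2.96 after serum and 3.28 and 3.17 after oleic acid. At 24 h it was 3.01 and 2.87 after serum and 3.19, 3.29 and 3.17 after oleic acid. Each of these 9 late brains was below each of the 22 earlier ones. Such a gap below the 3-4 h brains was found for 0.655% of all genes, and one below the 1-1.5 h brains for 0.0992%.

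Rbm3 was also highest at 4 h, and its lowest group was serum at 24 h. At 1 h its log2 level was 3.04, 3.27 and 3.41 after serum and 3.51, 3.45 and 3.54 after oleic acid. At 1.5 h it was 3.13, 2.84 and 2.80 after serum and 2.86, 3.17 and 3.18 after oleic acid. The values at 1.5 h overlapped those of serum at 1 h but lay below the oleic acid mice at 1 h. At 3 h the level was 2.97 and 3.22 after serum and 3.17, 3.53 and 3.34 after oleic acid. At 4 h it was 3.77 and 3.40 after serum and 3.84, 3.71 and 3.66 after oleic acid. The highest Rbm3 values of the series were 4 of these 4 h brains. At 18 h the level was 3.09 and 3.08 after serum and 3.29 and 3.28 after oleic acid. At 24 h it was 2.59 and 2.72 after serum and 2.75, 2.88 and 3.23 after oleic acid. Unlike Cirbp, Rbm3 at 18 h was within its range at 1 and 1.5 h.

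**Figure D1:**
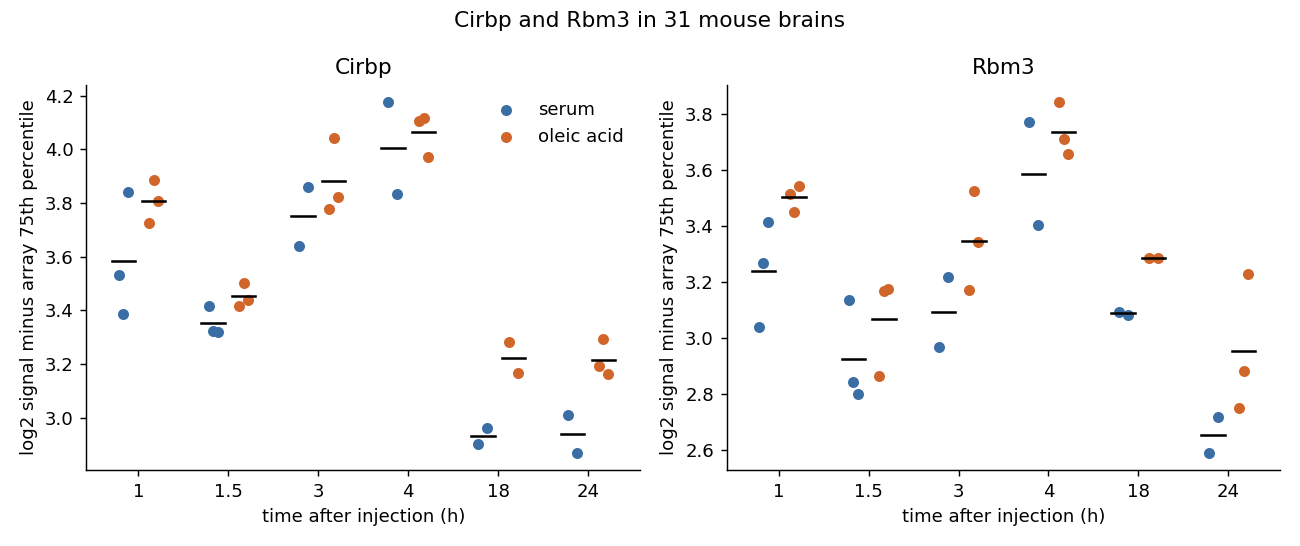
Log2 levels of Cirbp (left) and Rbm3 (right) against hours after injection (times evenly spaced, not to scale), 1 point per mouse, serum in blue and oleic acid in orange, with a black bar at each group mean. Cirbp lies between 3.64 and 4.17 at 3-4 h and between 2.87 and 3.29 at 18-24 h, with no overlap, and Rbm3 spreads from 2.97 to 3.84 and from 2.59 to 3.29 in the same spans.

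Ordered by mean, the Cirbp groups ran from oleic acid 4 h (4.06 ± 0.08, SD, n = 3) and serum 4 h (4.00 ± 0.24, n = 2) down to serum 24 h (2.94 ± 0.10, n = 2) and serum 18 h (2.93 ± 0.04, n = 2). Between them stood, from the top, oleic acid 3 h, oleic acid 1 h, serum 3 h, serum 1 h, oleic acid 1.5 h, serum 1.5 h, oleic acid 18 h and oleic acid 24 h. Neighbours in that order had separate ranges at 3 places. These were oleic acid 1.5 h (3.45 ± 0.04, n = 3) above serum 1.5 h (3.35 ± 0.05, n = 3), serum 1.5 h above oleic acid 18 h (3.22 ± 0.08, n = 2), and oleic acid 24 h (3.22 ± 0.07, n = 3) above serum 24 h. The Rbm3 groups ran from oleic acid 4 h (3.74 ± 0.09, n = 3), serum 4 h (3.59 ± 0.26, n = 2) and oleic acid 1 h (3.50 ± 0.05, n = 3) to oleic acid 24 h (2.95 ± 0.25, n = 3), serum 1.5 h (2.93 ± 0.18, n = 3) and serum 24 h (2.65 ± 0.09, n = 2). In that order only serum 1.5 h and serum 24 h were neighbours whose ranges were separate.

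The first time comparison asked how both genes moved in the first hours. Averaged over both treatments, Cirbp rose from 1-1.5 h to 3-4 h by 0.38 ± 0.06 (SE) on the log2 scale, 1.30-fold (limma, adjusted p = 0.000551). Rbm3 rose by 0.26 ± 0.07, 1.19-fold (limma, adjusted p = 0.0323). In this comparison 9.49% of all genes passed the threshold of 0.05 on the adjusted p, and 6.73% passed and were higher. Cirbp ranked 110th of 25203 genes by p and Rbm3 1760th. The ranges of the 2 spans overlapped for both genes. The direction of the wider set depends on scaling: 70.8% of passing genes were higher, against 58.2% with quantile normalization and 55.7% with scaling to the median. The rise of Rbm3 did not pass in 12 of 17 alternatives, among them the slide as a random block (0.25, adjusted p = 0.366) and as a fixed block (0.13, adjusted p = 0.974). It also failed without each of 8 single mice, at adjusted p of 0.0510 to 0.0955: replicate 1 of serum 1 h, 2 of oleic acid 1 h, 2 of serum 1.5 h, 1 of oleic acid 1.5 h, 2 of serum 3 h, 2 of oleic acid 3 h, 1 of serum 4 h and 1 of oleic acid 4 h. The rise of Cirbp was 0.24 in the deposited value table (adjusted p = 0.0207). It passed with the slide as a random block (0.38, adjusted p = 0.0479) and not with it as a fixed block (0.41, adjusted p = 0.919). Within slide 3, oleic acid mice at 3 h were above those at 1.5 h by 0.44 for Cirbp and 0.18 for Rbm3 (2 mice against 2).

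The largest change came later. From 3-4 h to 18-24 h Cirbp fell by 0.85 ± 0.06 on the log2 scale, to a level 1.80-fold lower (limma, adjusted p = 2.47e-08), the 8th smallest p of all genes. Rbm3 fell by 0.44 ± 0.08, 1.36-fold (limma, adjusted p = 0.000717, rank 503). Over all genes 12.7% passed here, and 7.71% passed and were lower. In the serum mice the mean Cirbp level of the 3 spans was 3.47, 3.88 and 2.94, and in the oleic acid mice 3.63, 3.97 and 3.22. The corresponding Rbm3 means were 3.08, 3.34 and 2.87 after serum and 3.29, 3.54 and 3.12 after oleic acid. By these means of spans the course was up and then down in each treatment and gene. Within the first span every group mean was lower at 1.5 h than at 1 h. The Rbm3 means at 3 h, 3.09 after serum and 3.35 after oleic acid, were below those at 1 h, 3.24 and 3.50. With the slide as a random block both falls passed (Cirbp -0.85, adjusted p = 3.15e-06, and Rbm3 -0.41, adjusted p = 0.0259). With the slide as a fixed block the values were -0.92 for Cirbp (adjusted p = 0.0569) and -0.14 for Rbm3 (adjusted p = 0.833). At 18-24 h Cirbp was also below its level at 1-1.5 h, by 0.47 ± 0.06 or 1.39-fold (limma, adjusted p = 9.7e-05), whereas the Rbm3 difference of -0.19 ± 0.08 did not pass (limma, adjusted p = 0.112). Here 11.2% of genes passed and 5% passed and were lower. For Rbm3 that call changed without replicate 3 of oleic acid 24 h (-0.22, adjusted p = 0.0467). For Cirbp the value was -0.47 with the slide as a random block (adjusted p = 0.0137) and -0.51 with it as a fixed block (adjusted p = 0.826).

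One of the late falls could be read on a single slide, since both serum 4 h mice and both serum 18 h mice were on slide 4. Cirbp at 4.17 and 3.83 fell to 2.90 and 2.96, a drop of 1.07 ± 0.14 on the log2 scale or 2.10-fold (limma, adjusted p = 0.000469), the 5th smallest p of all genes. Its ranges did not overlap, and 23.3% of all genes were likewise lower without overlap in these 4 mice. In this comparison 0.928% of all genes passed, and 0.635% passed and were lower. The Cirbp fall passed in all 16 alternatives run on it, with values of -1.24 to -1.002 and adjusted p of 0.000148 to 0.0375, and without each single mouse. Rbm3 at 3.77 and 3.40 stood against 3.09 and 3.08, a difference of -0.50 ± 0.17 that did not pass (limma, adjusted p = 0.211, unadjusted p = 0.00807). It was -0.31 without replicate 1 of serum 4 h, -0.68 without the arrays lowest in Gabra6, -0.21 by the second Rbm3 probe and -0.03 by the mean of all 3 probes, none passing. On slide 5 oleic acid mice at 24 h differed from those at 18 h by -0.01 for Cirbp and -0.33 for Rbm3 (3 mice against 2). On slide 1 serum mice at 1.5 h differed from those at 1 h by -0.22 for Cirbp and -0.25 for Rbm3 (2 against 3). On slide 4 oleic acid mice at 4 h were above the single 3 h mouse there by 0.24 for Cirbp and 0.39 for Rbm3. On slide 2 the single serum mouse at 24 h differed from the single one at 1.5 h by -0.45 for Cirbp and -0.08 for Rbm3.

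Tested over all 6 times at once, Cirbp depended on time in the mean of both treatments (limma F = 39.3, adjusted p = 9.22e-07), in serum mice alone (F = 20.7, adjusted p = 0.00032) and in oleic acid mice alone (F = 19.1, adjusted p = 0.000267). Rbm3 did so too, with F of 15.1 (adjusted p = 0.000226), 7.01 (adjusted p = 0.0194) and 8.37 (adjusted p = 0.0107). The shares of all genes that passed these 3 tests were 35.8%, 10.5% and 7.06%. Cirbp passed in serum mice and in the mean of both treatments under every alternative run, and in oleic acid mice under every one except the fixed slide block (F = 3.36, adjusted p = 0.737). With that fixed block Rbm3 gave F of 2.03 (adjusted p = 0.64), 2.44 (adjusted p = 0.703) and 2.49 (adjusted p = 0.888). In serum mice alone Rbm3 also failed without replicate 1 of serum 4 h (F = 4.42, adjusted p = 0.0595) and without replicate 1 of serum 24 h (F = 5.01, adjusted p = 0.0542).

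The 3 Rbm3 probes did not give the same picture. The second probe, A_55_P2117525, ran from 2.27 to 3.53 and correlated with the first at r = 0.757 over 31 arrays. It differed by 0.18 ± 0.11 from 1-1.5 h to 3-4 h (limma over all probes, adjusted p = 0.324) and by -0.28 ± 0.12 from 3-4 h to 18-24 h (adjusted p = 0.138), the same signs as the first probe, and it did not pass for time over both treatments (F = 3.58, adjusted p = 0.0503). The third probe, A_52_P280360, ran from -7.55 to -3.96 and was not well above background on 15 arrays, so many of its values are only upper bounds. It correlated with the first probe at r = -0.07. The third probe differed by 0.11 ± 0.32 from 1-1.5 h to 3-4 h (limma over all probes, adjusted p = 0.858). From 3-4 h to 18-24 h it differed by 0.84 ± 0.35 (adjusted p = 0.117), the opposite sign to the first probe. The filter kept the third probe only through serum 18 h, oleic acid 18 h and oleic acid 24 h, where every mouse was well above background. That choice favours a higher late value, so the sign of this difference is not read further. The time calls for Rbm3 therefore rest on the probe A_51_P262340. One further probe, A_55_P1985001, which the array describes as a Cirbp transcript (chr10:79635422-79635481, mm9) but does not name Cirbp, ran from -1.49 to 1.18 and correlated with the Cirbp probe at r = -0.11. That probe passed for time over both treatments (limma over all probes, F = 4.29, adjusted p = 0.0301). Its differences were -0.10 ± 0.21 from 1-1.5 h to 3-4 h and 0.40 ± 0.22 from 3-4 h to 18-24 h. Neither passed (adjusted p = 0.791 and 0.252), and both signs were opposite to those of the Cirbp probe. The Cirbp results thus rest on the probe A_51_P272106.

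**Figure D2:**
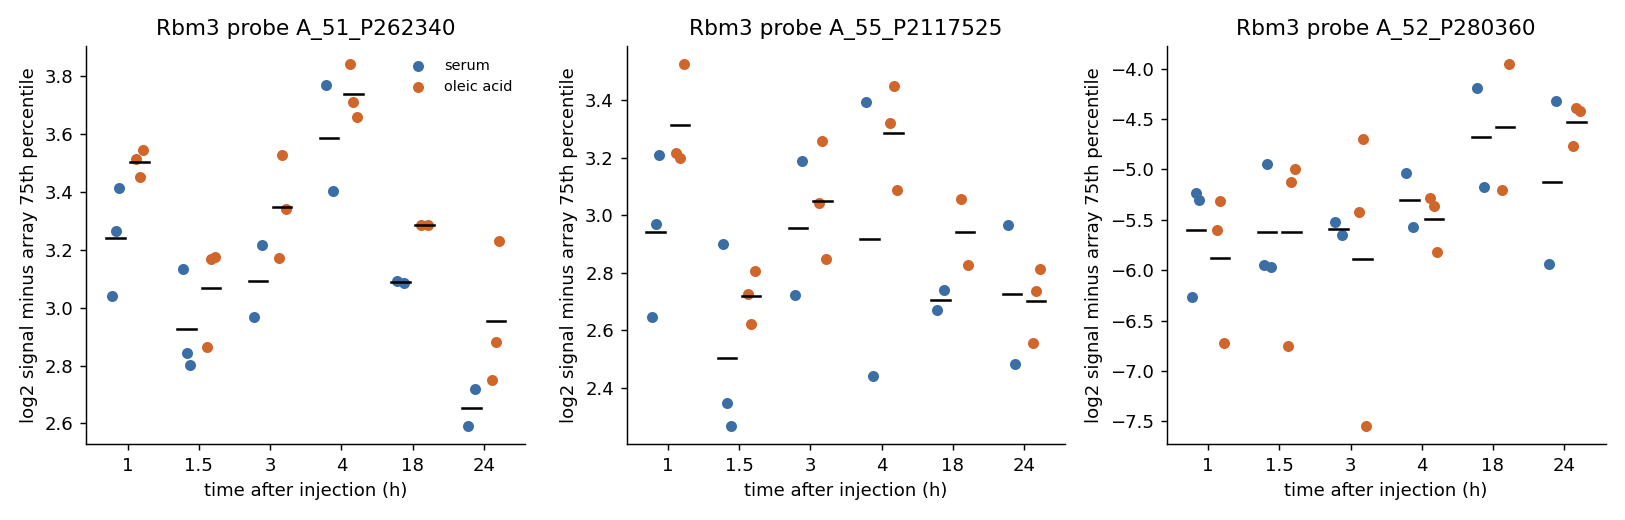
Log2 levels of the 3 Rbm3 probes against hours after injection, 1 point per mouse, serum in blue and oleic acid in orange, black bars at group means and a separate vertical scale for each probe. The first probe peaks at 4 h, the second spreads more within groups (serum 4 h holds its values far apart), and the third lies near background between -7.55 and -3.96.

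The treatment comparison asked whether oleic acid changed either gene at a given time. Oleic acid minus serum was above 0 at 6 of 6 times for both genes, and no single difference passed the correction for all genes. For Cirbp the log2 differences were 0.22 ± 0.11 (SE) at 1 h, 0.10 ± 0.11 at 1.5 h, 0.13 ± 0.12 at 3 h, 0.06 ± 0.12 at 4 h, 0.29 ± 0.14 at 18 h and 0.28 ± 0.12 at 24 h. Every oleic acid mouse was above every serum mouse at 1.5, 18 and 24 h, as was so for 4.29%, 22.9% and 12.3% of all genes at those times. For Rbm3 the differences were 0.26 ± 0.14, 0.14 ± 0.14, 0.25 ± 0.16, 0.15 ± 0.16, 0.20 ± 0.17 and 0.30 ± 0.16 at the same times, with separate ranges at 1, 18 and 24 h. Of all genes 4.11% were higher without overlap at 1 h, and 10.1% and 9.47% at 3 and 4 h, where neither Cirbp nor Rbm3 was. Adjusted p-values ran from 0.671 to 0.996 for Cirbp and from 0.73 to 0.996 for Rbm3 (limma), and unadjusted ones were under 0.05 for Cirbp at 18 h (0.0433) and 24 h (0.0372). The share of all genes that passed was 0% at 1, 1.5, 3, 18 and 24 h and 0.00397% (1 gene) at 4 h by limma, while 1221, 1332, 1223, 1834, 1659 and, at 4 h, 765 genes had an unadjusted p under 0.05. Single mice moved many of these differences by over 1.5 times. Without replicate 2 of serum 4 h the 4 h difference was -0.11 for Cirbp and -0.034 for Rbm3, and without replicate 1 it was 0.23 and 0.33. Without replicate 1 of serum 3 h the 3 h difference was 0.02 for Cirbp and 0.13 for Rbm3, and without replicate 2 of oleic acid 3 h it was 0.05 and 0.16. Cirbp at 3 h was 0.24 without replicate 2 of serum. At 4 h Cirbp was 0.04, 0.03 and 0.11 without replicates 1, 2 and 3 of oleic acid, and Rbm3 was 0.10 without replicate 1. At 1 h Cirbp ran from 0.12 without replicate 2 of serum to 0.35 without replicate 3, and Rbm3 was 0.16 without replicate 1. At 1.5 h Rbm3 ran from 0.08 without replicate 3 of serum to 0.25 without replicate 1, and was 0.25, 0.09 and 0.09 without replicates 1, 2 and 3 of oleic acid. At 24 h Rbm3 was 0.16 without replicate 3 of oleic acid.

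Averaged over the 6 times, oleic acid mice were above serum mice by 0.18 ± 0.05 for Cirbp, 1.13-fold (95% confidence interval of the log2 difference 0.08 to 0.28), and by 0.22 ± 0.06 for Rbm3, 1.16-fold (0.09 to 0.35). Unadjusted p-values were 0.00163 and 0.00216, ranks 32 and 46 of 25203 genes, and both adjusted p-values were 0.998 (limma). No gene passed in this comparison (0%), and 1149 had an unadjusted p under 0.05. Summed erythroid markers were 7.90 to 9.60 in serum mice and 7.26 to 8.74 in oleic acid mice, and 6 of 6 measured erythroid markers had a mean difference below 0, none passing; their part in the treatment difference was not tested. All 8 cerebellum markers had a mean difference above 0, none passing, beside 47.5% of all genes above 0. Their summed levels were 3.32 to 6.82 in serum mice and 3.19 to 6.80 in oleic acid mice, and their part was not tested. The treatment difference did not vary detectably with time (limma F = 0.605, adjusted p = 0.88 for Cirbp, and F = 0.185, adjusted p = 0.981 for Rbm3), in a test that 0% of genes passed and 1372 met at an unadjusted p under 0.05. Within slides, oleic acid minus serum was 0.22 for Cirbp and 0.26 for Rbm3 at 1 h on slide 1, 0.10 and 0.06 at 1.5 h on slide 2 (1 mouse each), 0.16 and 0.26 at 3 h on slide 3, 0.06 and 0.15 at 4 h on slide 4, and 0.21 and 0.36 at 24 h on slide 5 (3 against 1). At 18 h the treatments were on different slides and cannot be told apart from them within a slide.

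**Figure D3:**
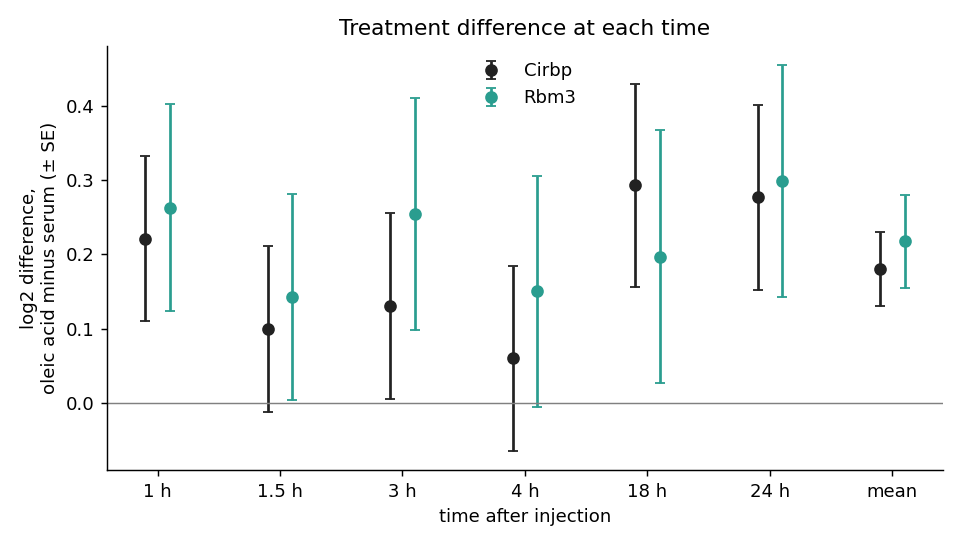
Log2 difference of oleic acid minus serum at each time and over the mean of the 6 times, Cirbp in black and Rbm3 in green, with bars of 1 SE. All differences lie above 0, the lowest at 0.06 and the highest at 0.30, and the bars of Cirbp at 1.5 and 4 h and of Rbm3 at 4 h reach below 0.

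Over 31 arrays from all groups Cirbp and Rbm3 were high and low together, and with group means removed their correlation did not pass. Over all arrays Pearson's r was 0.794 and Spearman's rho 0.764 (permutation p = 1e-05 for each, the smallest that 100000 permutations can give, adjusted p = 6e-05 and 0.00012 over 12 relations). Without the 2 arrays farthest from the Cirbp median r was 0.748. Because levels differ between times, r was also taken within each span. It was 0.854 at 1-1.5 h (12 mice, permutation p = 0.00062, adjusted p = 0.00124, rho 0.776), 0.945 at 3-4 h (10 mice, permutation p = 0.0001, adjusted p = 0.0004, rho 0.915) and 0.326 at 18-24 h (9 mice, permutation p = 0.381, rho 0.333). These values include differences between groups. On deviations from the group means it was 0.512 (permutation p = 0.0503, adjusted p = 0.067). Within slides r was 0.838 on slide 1, 0.672 on slide 3, 0.928 on slide 4 and 0.479 on slide 5, with permutation p of 0.0146, 0.125, 0.00043 and 0.334. Each of these slides held mice of different times, so the slide values too include differences between groups. Both genes are read from the same array and share its scaling.

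**Figure D4:**
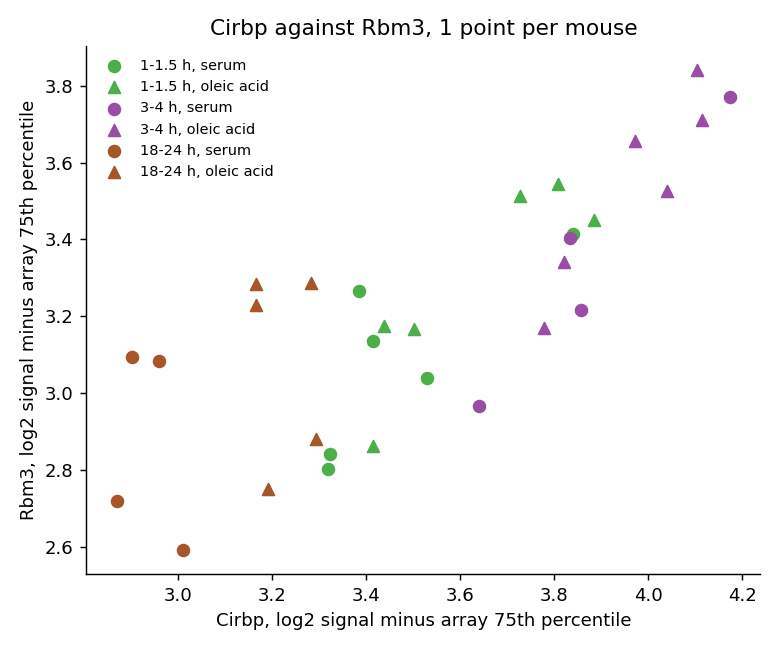
Log2 level of Rbm3 against that of Cirbp, 1 point per mouse, coloured by span of time, circles for serum and triangles for oleic acid. The points rise together within 1-1.5 h (r = 0.854) and within 3-4 h (r = 0.945), while the 18-24 h points sit at low Cirbp and scatter in Rbm3 from 2.59 to 3.29.

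The genes most like each member over the 31 arrays were found by Pearson's r, as a description. For Cirbp these were Odf2, a centriole and sperm-tail protein (r = 0.912), Thtpa, thiamine triphosphatase (0.905), Oscp1 (0.885), the ubiquitin protease Usp2 (0.879) and the phospholipase Pla2g4e (0.878). Rbm3 was 59th for Cirbp, and Cirbp was 44th for Rbm3. From 3-4 h to 18-24 h the differences of these 5 genes were -0.81, -0.26, -0.42, -0.67 and -0.98 (limma, adjusted p of 4.46e-07 to 0.000341). For Rbm3 the closest named genes were Atl2, an endoplasmic reticulum fusion protein (0.903), the glycosyltransferase Alg5 (0.858), Aff1, part of a transcription elongation complex (0.854), the helicase Ddx46 (0.847) and Erlin2 (0.847). Their differences over the same interval were -0.38, -0.22, -0.51, -0.18 and -0.25, and Ddx46 did not pass (limma, adjusted p = 0.0589). Of all genes 7.71% passed and were lower there. Both sets were picked for likeness on these same arrays, so their falls follow in part from that choice and are no separate evidence. The median r over 25202 genes was 0.04 for each member. All genes were read from the same arrays, which differ in brightness, slide and time.

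Cold shock domain proteins are the other animal family named for cold. Of 8 measured, 5 passed for time over both treatments, beside 35.8% of all genes. From 1-1.5 h to 3-4 h 1 passed, beside 9.49%: Carhsp1, which binds and stabilises messenger RNA (0.21 ± 0.05, limma, adjusted p = 0.00855). From 3-4 h to 18-24 h 2 of the 8 fell, beside 7.71% of all genes lower, and with the slide as a random block 1 did and as a fixed block none. Carhsp1 fell by 0.24 ± 0.05 (limma, adjusted p = 0.00434). The list's median was 0.00 beside -0.02 over all genes. None of the 8 passed in the serum mice on slide 4 or for oleic acid. Of 21 related genes with RNA-binding motifs, 4 rose and 2 fell over the same interval, beside 12.7% of all genes in either direction, and their median was -0.03. A random slide block left 1 rise and no fall, and a fixed one left none. The splicing regulators Rbm5 and Rbm10 rose by 0.31 and 0.22, Rbm4 rose by 0.20, and Rbmx, the near relative of both members, fell by 0.28 (limma, adjusted p of 0.00121 to 0.0352). These members therefore went both ways.

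Among 10 listed partners and targets of the 2 proteins, 9 had a difference below 0 from 3-4 h to 18-24 h, of which 1 passed, and 1 rose, beside 12.7% of all genes passing. Of all genes 46.4% had a difference above 0 there. Rpa2, a replication protein whose transcript CIRBP binds, fell by 0.34 ± 0.08 (limma, adjusted p = 0.00526), after a rise of 0.26 ± 0.07 from 1-1.5 h to 3-4 h (limma, adjusted p = 0.0263). Bdnf, the neurotrophin upstream of RBM3 in synapse maintenance, rose by 0.38 ± 0.10 (limma, adjusted p = 0.0159). Rtn3, whose translation RBM3 promotes, was lower at 18-24 h than at 1-1.5 h by 0.33 ± 0.09, and Clock by 0.26 ± 0.08 (limma, adjusted p = 0.016 and 0.0293). The median of the list from 3-4 h to 18-24 h was -0.15 beside -0.02 over all genes. With the slide as a fixed block it was 0.18, and none of the 10 passed. None passed in the serum mice on slide 4.

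Splicing factors and kinases known to respond to temperature gave more rises than falls in the interval in which Cirbp fell. Of 20 measured, 6 rose and 1 fell from 3-4 h to 18-24 h, beside 12.7% of all genes passing in either direction, and the median was 0.09. The splicing factor Srsf6 rose by 0.63 ± 0.07, and the kinases Clk1 and Clk2, which phosphorylate such factors, rose by 0.59 ± 0.12 and 0.35 ± 0.07. Hnrnpdl, a relative of the hnRNP D proteins, fell by 0.46 ± 0.07 (limma, adjusted p of 2e-06 to 0.00295 for these 4). In the serum mice on slide 4 only Srsf6 of the 20 passed (0.81 ± 0.15, limma, adjusted p = 0.00691). With the slide as a random block 3 rose and 1 fell, and with it as a fixed block none passed.

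Heat shock chaperones, which refold proteins damaged by heat, gave 6 rises and 1 fall among 19 measured over that interval, with a median of 0.13. Of all genes 4.95% passed and were higher, and 7.71% passed and were lower. A random slide block left 2 rises and 1 fall. Chordc1, a partner of HSP90, rose by 0.70 ± 0.07 (limma, adjusted p = 7.2e-07), after a fall of 0.36 ± 0.06 from 1-1.5 h to 3-4 h (limma, adjusted p = 0.00145), the reverse of Cirbp at both steps. The small heat shock protein gene Hspb1 rose by 0.55 ± 0.13 and the co-chaperone gene Dnaja1 by 0.23 ± 0.06, while Hspa4, of the HSP110 family, fell by 0.54 ± 0.09 (limma, adjusted p of 0.000551 to 0.0103). Hspa4 had risen by 0.31 ± 0.09 from 1-1.5 h to 3-4 h (limma, adjusted p = 0.0296), so it moved as Cirbp did at both steps. In the serum mice on slide 4, 17 of 19 were higher at 18 h, beside 44% of all genes. Only Chordc1 of the 19 passed there (0.81 ± 0.15, limma, adjusted p = 0.00728). With the slide as a fixed block Chordc1 was again the single chaperone that passed (0.96, adjusted p = 0.0477). For oleic acid 16 of 19 had a mean difference below 0, with a median of -0.10 and none passing, and 47.5% of all genes had one above 0. Hspb1 was at -0.28 ± 0.10 there (limma, unadjusted p = 0.0132, adjusted p = 0.998).

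Clock genes follow time of day. Of 19 measured, 12 passed for time over both treatments, 2 in serum mice alone and 4 in oleic acid mice alone, beside 35.8%, 10.5% and 7.06% of all genes. Clock itself is on this list and on that of partners. From 3-4 h to 18-24 h 8 fell and 1 rose, with a median of -0.28, beside 7.71% of all genes lower and 4.95% higher. A random slide block left 4 falls and 1 rise, and a fixed one 1 fall, Ciart (-2.18, adjusted p = 0.0362). Ciart, a repressor of the clock, fell by 2.19 ± 0.14, Nr1d1 (REV-ERB alpha) fell by 1.37 ± 0.23, Per1 fell by 0.88 ± 0.12 and the output factor Dbp fell by 0.77 ± 0.12 (limma, adjusted p of 2.2e-09 to 0.00037). From 1-1.5 h to 3-4 h 4 rose, Ciart by 1.03 ± 0.13, Per3 by 0.53 ± 0.13, Per1 by 0.44 ± 0.11 and Dbp by 0.40 ± 0.11, and Clock fell (limma, adjusted p of 6.5e-05 to 0.0373). Over all genes 9.49% passed here, and 6.73% passed and were higher. With the slide as a fixed block 3 of all genes passed this comparison, and with it as a random block 122. Of 5 scalings, the main one included, Ciart passed in 5, Per3 in 4, Per1 and Dbp in 3 and Clock in 2. In the serum mice on slide 4 Ciart fell by 2.15 ± 0.29 (limma, adjusted p = 0.000868) and no other clock gene passed. Across the 31 arrays the summed clock level correlated at r = 0.77 with Cirbp and 0.64 with Rbm3, and the summed heat shock level at -0.16 and -0.08. Clock time of injection or of death is not given in the sources used here, so hours after injection and hour of day cannot be told apart.

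**Figure D5:**
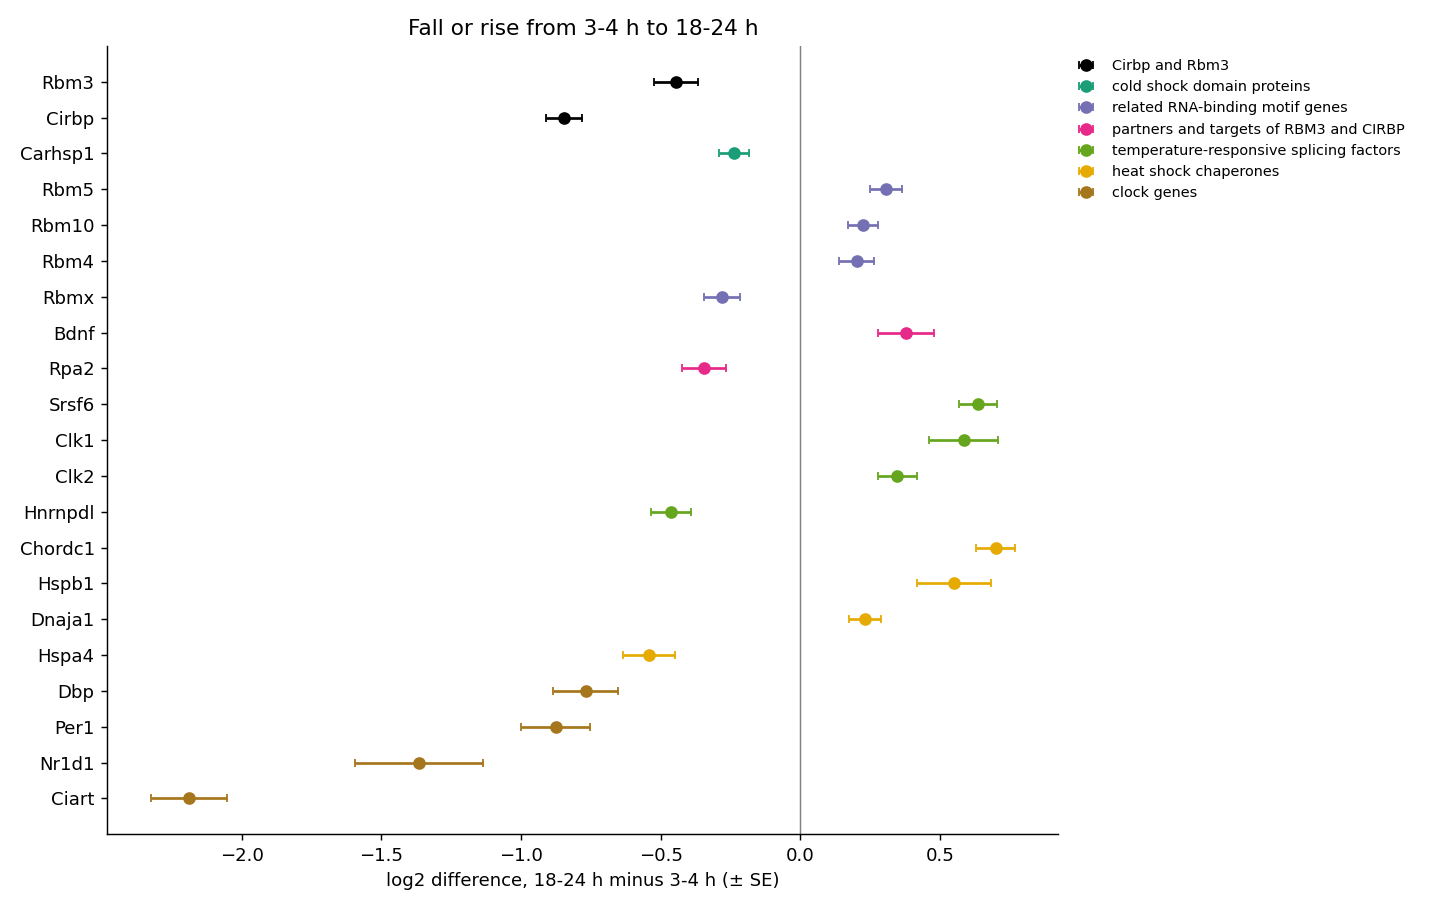
Log2 difference of 18-24 h minus 3-4 h, averaged over both treatments, with bars of 1 SE, for Cirbp and Rbm3 (black) and the passing genes named above from each list (colours). Cirbp lies at -0.85 and Rbm3 at -0.44, Ciart is farthest down at -2.19, and Chordc1 and Srsf6 are farthest up at 0.70 and 0.63.

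Markers of cell types and of neighbouring tissues also differed with time. Over both treatments 4 of 6 pituitary, 4 of 7 oligodendrocyte, 3 of 8 neuron, 1 of 7 astrocyte and 1 of 7 choroid plexus markers passed for time, beside 35.8% of all genes, and no microglia, erythroid, cerebellum or liver marker did. From 1-1.5 h to 3-4 h, where 9.49% of all genes passed, 3 of 6 erythroid markers and 1 of 7 oligodendrocyte markers passed and were higher, and 1 astrocyte and 1 microglia marker passed and were lower. Summed erythroid levels were 7.26 to 9.18, 7.86 to 9.60 and 7.33 to 8.86 in the 3 spans. From 3-4 h to 18-24 h, where 12.7% passed, 1 of 8 neuron, 2 of 7 oligodendrocyte and 1 of 6 erythroid markers passed and were lower, and no marker passed and was higher. From 1-1.5 h to 18-24 h, where 11.2% passed, 1 pituitary and 1 oligodendrocyte marker passed and were higher and 1 neuron marker passed and was lower. Summed pituitary levels were 3.40 to 5.15, 3.49 to 4.52 and 3.59 to 7.77 in the 3 spans. In the serum mice on slide 4 the 8 liver markers had a median difference of 2.69, none passing. In whole brain fewer cells of a type and less RNA per cell cannot be told apart, and the part of these markers in the Cirbp and Rbm3 differences was not tested.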

How the data were processed

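RNA from 31 brains was hybridised to 1-colour Agilent arrays, and spot intensities and quality flags were deposited by the authors as scanner output from Agilent Feature Extraction 10.5.1.1, per the submitters' processing notes. The value table that the authors deposited holds log2 values with column medians of 6.13, correlates with the scanner signal at r = 0.998 to 1.00, and served as an alternative. Its centring is not stated.

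The processed signal was put on a log2 scale and the 75th percentile of each array subtracted. Control spots and non-uniform spots were left out. Of 55681 probes, 35498 were measured on all 31 arrays and stood well above background throughout 1 or more of the 12 groups; these were kept. The probe with the highest mean stood for a gene, giving 25203 genes. limma 3.58.1 in R 4.3.3 fitted the 12 group means (19 residual degrees of freedom), with Benjamini-Hochberg adjustment over all genes and a threshold of 0.05. The fit was tested on simulated data for 3-4 h minus 1-1.5 h. Of 100 genes given a log2 change of 0.5, 59% were recovered, and of 100 given a change of 1, 90%, with 7 false calls in each case. Precision is limited by the number of arrays.

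Cirbp, Rbm3 and the gene lists were chosen with earlier results of these data known. Cirbp and Rbm3 are always named, as are the 5 genes with a symbol closest to each and up to 4 passing genes of each list by adjusted p, or the highest and lowest where none passed. One gene that this rule names is not reported here. For some genes the array uses older symbols (Ciart is Gm129, Hnrnpdl is Hnrpdl). Promoter letters are from RefSeq on GRCm38.p6, and probe positions are those of the array files on mm9. No Rbm3 promoter is shown.

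Same-numbered serum and oleic acid mice did not deviate together (14 pairs, r of -0.621 to 0.390, 3 above 0.1), so numbers were not used to pair mice.

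Alternatives were normexp background correction, quantile and median scaling, the deposited table, no filter or a stricter one, other probe rules, slide or scan date as a block, a replicate block, and arrays left out.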

Additional observations from a re-analysis of the deposited data

How the results depend on the processing

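The Cirbp calls held under every alternative except the slide as a fixed block. That block gave 0.41 for 3-4 h minus 1-1.5 h, -0.92 for 18-24 h minus 3-4 h, -0.51 for 18-24 h minus 1-1.5 h and F = 3.36 for time in oleic acid mice. The Cirbp rise from 1-1.5 h to 3-4 h was smallest in the deposited table, at 0.24. For Rbm3 the slide as a fixed block gave 0.13 for 3-4 h minus 1-1.5 h and -0.14 for 18-24 h minus 3-4 h. That block also gave Rbm3 F = 2.03 for time over both treatments, 2.44 in serum and 2.49 in oleic acid mice. None of these Rbm3 results passed. Leaving out the arrays lowest in Gabra6, those highest in pituitary markers or slide 2 was chosen after seeing the data.

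The Rbm3 rise from 1-1.5 h to 3-4 h did not pass with normexp (0.23), quantile normalization (0.19), median scaling (0.21), the deposited table (0.18), no filter (0.26), the mean of all probes (0.18), the second probe (0.18), the slide as a random block (0.25), the scan date (0.23), without the 4 arrays lowest in Gabra6 (0.30) or without slide 2 (0.21). Leaving out single mice gave 0.21 to 0.30. Time in serum mice did not pass for Rbm3 with quantile normalization (F = 3.97), the deposited table (3.91) or the random block (5.30), nor time in oleic acid mice with quantile normalization (F = 4.35), median scaling (4.90), the deposited table (4.10) or the random block (5.38). Leaving out single mice gave F of 4.42 to 8.27 in serum mice. The mean of the 3 Rbm3 probes turned 18-24 h minus 3-4 h to 0.037 and 18-24 h minus 1-1.5 h to 0.22. Its F was 1.76, 0.80 and 1.099 for time over both, serum and oleic acid mice. Of these probes 1 was near background and was kept only through groups of 18-24 h, which favours a higher late mean. The second probe alone gave -0.28 for 18-24 h minus 3-4 h, F of 3.58, 1.21 and 3.04, and -0.023 for oleic acid at 24 h. The Rbm3 difference of 18-24 h minus 1-1.5 h passed without slide 2 (-0.25), and leaving out single mice gave -0.22 to -0.16. The cause of these changes was not tested.

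Oleic acid minus serum at 4 h turned to -0.14 for Cirbp and -0.046 for Rbm3 with median scaling, and for Cirbp to -0.064 without the arrays lowest in Gabra6. Leaving out single mice gave -0.11 to 0.23 for Cirbp and -0.034 to 0.33 for Rbm3. A replicate block (pairing by number) changed no call of either gene (18-24 h minus 3-4 h -0.85 for Cirbp and -0.44 for Rbm3).

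Over all genes, 2393 passed for 3-4 h minus 1-1.5 h, 3191 for 18-24 h minus 3-4 h, 2828 for 18-24 h minus 1-1.5 h, 234 for serum 18 h minus 4 h, and 9013, 2636 and 1779 for time over both, serum and oleic acid mice. With the slide as a fixed block 3 genes passed the first of these, 0.425% of all genes the second and 32 genes the third, and those for time 130, 124 and 35. With it as a random block they were 122, 1092 and 183, and 807, 192 and 84. Median scaling gave 1086 and 1588 for the first and the second, 63 for serum 18 h minus 4 h, and 1247 and 835 for time in serum and oleic acid mice. Normexp gave 126 for serum 18 h minus 4 h, no filter 1158 and 960 for time in serum and oleic acid mice, and single probes 4292 for 18-24 h minus 1-1.5 h. Without the arrays lowest in Gabra6, 789 passed for the first, 1865 for the third, and 4539, 807 and 427 for time. Without those highest in pituitary markers, 1903 passed for the second, 1813 for the third, and 1295 and 854 for time in serum and oleic acid mice. Without slide 2, 4492 passed for the third and 4310 for time in serum mice. Leaving out single mice gave 1408 to 3818, 2357 to 3854, 1839 to 4259 and 39 to 339 for the 4 differences, and 6464 to 10655, 681 to 4555 and 706 to 2721 for time. The lowest came without replicate 1 of serum 18 h for the third, the fourth and time in serum mice, replicate 2 of serum 4 h for the first and time over both, and replicate 1 of oleic acid 18 h and 4 h for the other two. For oleic acid minus serum at 24 h, where none passed, 80 passed with the slide as a fixed block, 71 without the arrays highest in pituitary markers, 84 without slide 2 and 58 without serum 24 h replicate 2. At 1.5 h 30 passed with the fixed block and 158 without serum 1.5 h replicate 3, and 35 passed for the mean of the 6 times with the fixed block. Neither Cirbp nor Rbm3 passed for oleic acid under any of these.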
